A study of Homo sapiens with 8 samples.

Results

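Semaphorins are extracellular guidance proteins and plexins are the receptors that read them. In A549 cells, an established epithelial line from a human lung adenocarcinoma, 10 genes of these families were followed through exposure to dexamethasone, a synthetic glucocorticoid. The 10 were SEMA3A, SEMA3B, SEMA3C, SEMA4B, SEMA4C, SEMA6A, SEMA6B, PLXNA1, PLXNA2 and PLXNB2, out of 19158 genes in each library and 29 semaphorin and plexin genes. They were chosen by name, with their change in these same libraries known. Their fold changes are therefore given as a description with intervals and no p-value, while family and pathway genes outside the 10 carry the test. Both groups were wild-type A549 cells, labelled WT, grown in DMEM with 5% fetal bovine serum. Of the 8 wells, 4 were untreated and 4 received dexamethasone at 1 µM for 48 h. Each well gave 1 library, with replicate numbers 1, 3, 4 and 5 in each group and 1 batch label throughout. All wells came from 1 cell line, so the p-values measure the spread between wells and not between donors.

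Semaphorins share an extracellular sema domain and were first described as cues that steer growing axons. Class 3 semaphorins are secreted and mostly act through neuropilins that pair with class A plexins or with PLXND1, whereas classes 4, 5 and 6 are membrane proteins and SEMA7A is held by a lipid anchor. Plexins span the membrane and carry an intracellular domain that switches off small GTPases of the Ras and Rap type, which alters integrin adhesion and the actin skeleton. Outside the nervous system the same proteins act in vessel growth, epithelial adhesion and lung branching, and several are studied in lung cancer.

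Levels are FPKM, a fragment count scaled to transcript length and library size, so genes can be compared per length. Fold changes are differences in log2(FPKM + 1) after scaling between libraries. Of 12161 genes tested with limma, 26.8% passed an adjusted p of 0.05, 12.6% higher and 14.2% lower after dexamethasone, and the 4 treated libraries did not overlap the 4 untreated ones in 31.4%. The known glucocorticoid targets FKBP5, TSC22D3 and PER1 rose by 4.33, 3.87 and 1.94 on the log2 scale. Depth, estimated from the steps between low values, was 24980000 to 28700000 fragments per library. The labels' protocols give 40000000 to 50000000 read pairs. The search for the estimate covered only depths below those, so it could not have returned them and is not compared with them. The untreated library of replicate 5 stood apart, with 10555 genes at 1 FPKM or more against 11290 to 11378 in the other untreated libraries and a scaling factor of 0.8205 against 1.034 to 1.085, and its dexamethasone counterpart had 0.9152. Across tested genes the log2 fold change correlated with GC content (Spearman rho = -0.444). Values with that trend removed are printed for the tested members and for some other genes. Genes without such a value can differ too, as PLXND1 did at -0.87 and, with the trend removed, -0.61. Of the epithelial markers, CDH1 rose from 6.80 to 18.2 FPKM (limma adjusted p = 9.17e-05), KRT19 fell from 156 to 54.7 FPKM (limma adjusted p = 0.00153) and EPCAM was under 1 FPKM in every library; the 6 summed to 3470 to 5092 FPKM untreated and 4558 to 6920 treated. Neural markers summed to 89.4 to 179 FPKM untreated and 84.9 to 162 treated, among which MAP2 rose from 0.298 to 11.5 FPKM (limma adjusted p = 4.06e-07) and RBFOX3 fell from 7.74 to 4.50 FPKM (limma adjusted p = 0.0028). PTPRC, CD3E and COL1A2 were listed at 0 in all 8 libraries. Other leukocyte markers were present, and CD68 and CD14 made up most of the leukocyte sum. Both were lower after dexamethasone (log2 differences -0.73 and -0.58, limma adjusted p = 0.0107 and 0.019). CD79A, not tested, was at 0.316 to 0.73 FPKM untreated and 0.15 to 0.241 FPKM treated. Summed fibroblast markers were 1.82 to 2.3 FPKM untreated and 0.598 to 0.786 treated, with COL1A1 at means of 2.03 and 0.367 FPKM, while DCN was listed at 0 untreated and was at 0.178 to 0.355 FPKM treated. The sums were 6.14 to 7.88 and 3.26 to 4 FPKM for leukocyte markers and 0.0692 to 0.209 and 0 to 0.0496 FPKM for endothelial markers. The part of these markers in the results was not tested, and in bulk RNA fewer cells of a type and less RNA per cell cannot be told apart.

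SEMA6B had the widest difference of the 10 genes. It encodes a transmembrane class 6 semaphorin that binds class A plexins, and it lies on the minus strand of chromosome 19 at chr19:4542593-4559808 (GRCh38). SEMA6B measured 7.04, 7, 6.48 and 9.82 FPKM in the untreated wells 1, 3, 4 and 5, against 0.264, 0.313, 0.413 and 0.351 FPKM in the same order after dexamethasone. Every treated library was below 0.5 FPKM and every untreated one above 6 FPKM, so the groups were far from overlapping. The means were 7.59 ± 1.51 and 0.335 ± 0.063 FPKM (SD, n = 4), a difference of -2.68 in log2(FPKM + 1) with an SE of 0.189 and a 95% interval of -3.10 to -2.25. After scaling the untreated mean was 23.3 times the treated one. The log2 value understates this because the treated level lies below the added 1 FPKM, and with 0.1 FPKM added in its place the difference was -4.14. The difference was -2.32 with the GC trend removed.

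Of the other class 6 genes, SEMA6C was high enough to be tested and did not pass, and SEMA6A and SEMA6D were not tested. SEMA6A, a class 6 ligand of PLXNA2 and PLXNA4, was near the floor of the assay at 0.017, 0.00578, 0.00542 and 0.00579 FPKM untreated and 0, 0.0687, 0.00712 and 0 FPKM treated. It was too low to be tested, and a pair of treated libraries list it at 0. SEMA6A shares its position on chromosome 5 with the antisense genes SEMA6A-AS1 and SEMA6A-AS2, and whether the counting used strand is not stated. SEMA6C, outside the 10, was at 0.615 ± 0.0323 FPKM untreated and 0.75 ± 0.0788 FPKM treated (SD, n = 4; log2 difference 0.11, limma adjusted p = 0.327). With the GC trend removed SEMA6C differed by 0.39 and passed. The ratio of SEMA6B to SEMA6C was 10.7 to 16.5 in untreated libraries and 0.407 to 0.492 in treated ones, so the more abundant of the pair changed from SEMA6B to SEMA6C in 4 of 4 treated libraries. Class 6 as a whole summed to 8.21 ± 1.5 FPKM untreated and 1.11 ± 0.142 FPKM treated.

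**Figure D1:**
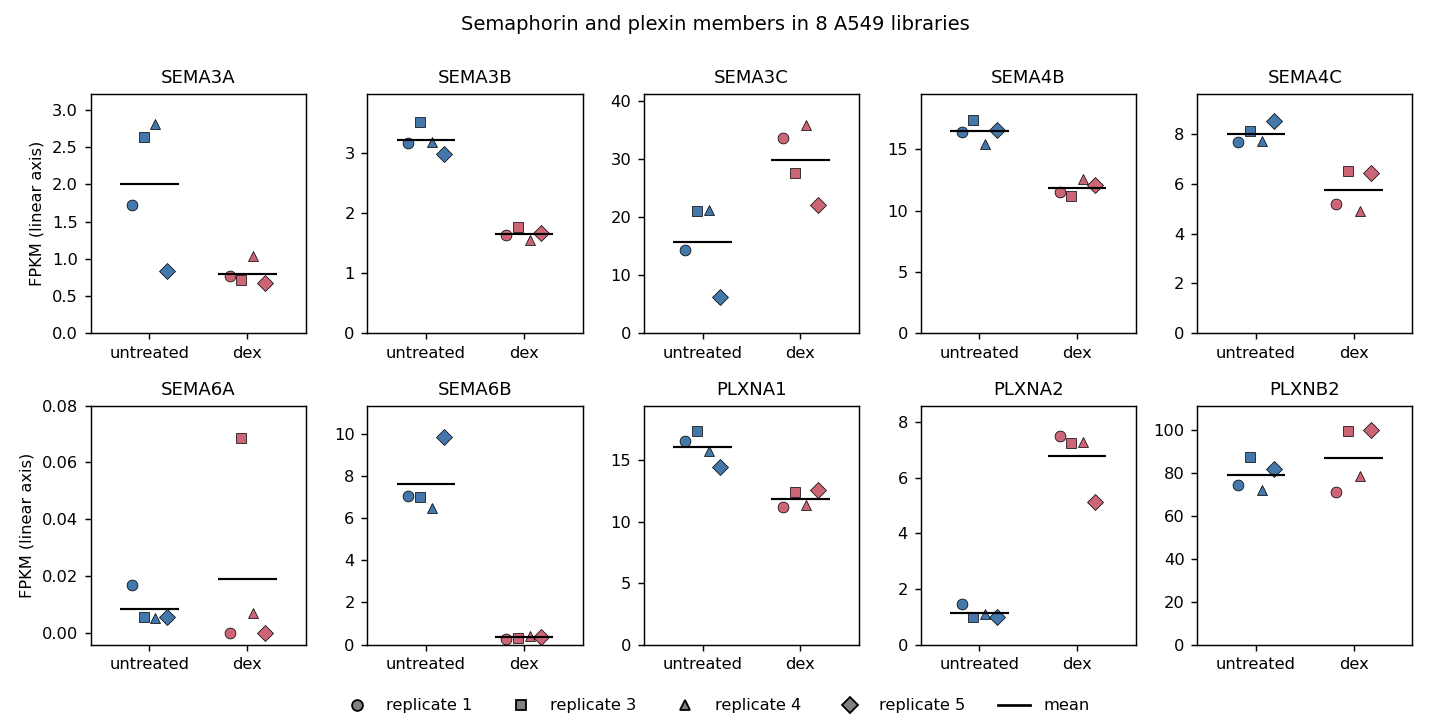
Deposited FPKM of the 10 semaphorin and plexin genes in each library (linear axes, each gene on its own scale), untreated in blue and dexamethasone (dex) in red, with the marker shape giving the replicate number and the bar the group mean of 4 libraries. SEMA6B lies between 6.48 and 9.82 FPKM untreated and below 0.5 FPKM treated, PLXNA2 moves the opposite way, and PLXNB2 overlaps between groups.

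Among the secreted class 3 semaphorins, SEMA3C was higher and SEMA3A and SEMA3B were lower after dexamethasone. SEMA3C signals through neuropilins with class A plexins or PLXND1 and lies at chr7:80742538-80922359 on the minus strand. It stood at 14.3, 21.0, 21.2 and 6.32 FPKM untreated and 33.6, 27.5, 35.9 and 22.0 FPKM treated. The lowest treated library was just above the highest untreated one, and replicate 5 was lowest in both groups. The means were 15.7 ± 7.02 and 29.7 ± 6.29 FPKM (SD, n = 4), with a log2 difference of 0.99, an SE of 0.269 and a 95% interval of 0.38 to 1.59. The interval is wide beside those of the other members, and the difference was 0.66 with the GC trend removed.

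SEMA3A, the collapsin first known for repelling axons through NRP1, lies on the same strand of chromosome 7 at chr7:83955777-84492724. It stood at 1.72, 2.64, 2.81 and 0.838 FPKM untreated and 0.771, 0.713, 1.04 and 0.676 FPKM treated. The untreated library of replicate 5 fell inside the treated range in these values, and the groups parted only after scaling between libraries. The log2 difference was -0.67 with an SE of 0.177 and a 95% interval of -1.07 to -0.27, and -1.01 with the GC trend removed. SEMA3A and SEMA3C each differed more between the highest and lowest untreated library than between group means, but their ratio did not. SEMA3C to SEMA3A was 8.31, 7.93, 7.55 and 7.54 in untreated replicates 1, 3, 4 and 5 and 43.6, 38.6, 34.4 and 32.5 in treated ones. Both genes are poor in GC, at 37.1% for SEMA3C and 36.7% for SEMA3A against a median of 48.2%, and a ratio within a library shows unequal change only.

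SEMA3B, a secreted semaphorin from a stretch of chromosome 3 that is often lost in lung cancer, lies at chr3:50267558-50277546 on the plus strand. It stood at 3.17, 3.52, 3.18 and 2.99 FPKM untreated and 1.63, 1.77, 1.55 and 1.67 FPKM treated. Replicates were tight in both groups and the groups were well apart. The means were 3.22 ± 0.219 and 1.65 ± 0.0916 FPKM (SD, n = 4), with a log2 difference of -0.67, an SE of 0.108 and a 95% interval of -0.91 to -0.43. The difference was -0.39 with the GC trend removed, and the GC content of SEMA3B is 64.8%. SEMA3B overlaps SEMA3B-AS1 on the opposite strand, whose reads cannot be told apart without strand, and the microRNA gene MIR6872 on its own strand.

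SEMA3F, a secreted semaphorin that binds NRP2, is the neighbour of SEMA3B on chromosome 3 and lies 78482 bases away. SEMA3F was outside the 10 and rose from 3.00 ± 0.418 to 4.85 ± 0.278 FPKM (SD, n = 4; log2 difference 0.55, SE 0.157, limma adjusted p = 0.0289). That call was lost when any of 7 of the 8 libraries was left out, with an adjusted p of up to 0.0712, and the difference was then 0.44 to 0.58. The ratio of SEMA3B to SEMA3F was 1.01, 1.13, 1.33 and 0.889 untreated and 0.336, 0.373, 0.338 and 0.318 treated. The neighbours were thus at about equal levels in untreated cells, and SEMA3F was the more abundant in every treated library. SEMA3F also has an antisense gene, SEMA3F-AS1, across it. On chromosome 7, SEMA3E lies between SEMA3C and SEMA3A, 2440878 bases from SEMA3C and 306663 bases from SEMA3A. SEMA3E was at 0.343, 0.435, 0.455 and 0.156 FPKM untreated and 0.389, 0.583, 0.667 and 0.258 FPKM treated, which overlap and were below the minimum for a test. SEMA3D and SEMA3G were also too low to test.

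Of the 10 genes, SEMA3C and PLXNA2 were the pair whose treated level lay above the untreated range. RefSeq promoter windows (GRCh38.p14) were matched for 7 of the 10; SEMA3A, SEMA6A and SEMA6B were not matched. The 250 bases before the annotated start nearest each gene's start are shown 5′ to 3′ on the gene's own strand, the minus strand, with every CG dinucleotide in capitals, at chr1:208244385-208244634 for PLXNA2 and chr7:80922390-80922639 for SEMA3C. They are shown because the members that were higher after dexamethasone differ in base composition at these starts, though not at every start. PLXNA2 was set by rule as the largest rise, and SEMA3C was added after its values were seen.
PLXNA2: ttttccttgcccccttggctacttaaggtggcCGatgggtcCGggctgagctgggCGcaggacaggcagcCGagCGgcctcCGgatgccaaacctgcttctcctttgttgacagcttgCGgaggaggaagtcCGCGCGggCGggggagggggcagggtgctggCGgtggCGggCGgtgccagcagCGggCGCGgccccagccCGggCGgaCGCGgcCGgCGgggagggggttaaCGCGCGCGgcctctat
SEMA3C: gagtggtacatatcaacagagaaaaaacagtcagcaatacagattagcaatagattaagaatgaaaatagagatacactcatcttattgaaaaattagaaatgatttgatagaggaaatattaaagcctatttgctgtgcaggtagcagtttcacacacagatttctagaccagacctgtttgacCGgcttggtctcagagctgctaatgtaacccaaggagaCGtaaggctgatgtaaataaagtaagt
The PLXNA2 window has 27 CG dinucleotides and a GC content of 72.4%, and the SEMA3C window has 2 and 36.4%. A RefSeq start of SEMA3C that lies 3308 bases inside the gene's start has a window with 39 CG dinucleotides and a GC content of 77.6%. Both are above those of PLXNA2, and which start these cells use was not tested. The windows of the 7 matched genes, 300 bases each with the 50 bases after the start added to the 250 before it, were searched on both strands for the glucocorticoid receptor palindrome (AGAACA and TGTTCT with 3 bases between), for AGAACA alone, which overlaps the palindrome, and for the AP-1 site (TGACTCA). None of the 3 was found in any of them. Of 35116 RefSeq windows of 300 bases, 0.00285% held the palindrome, 14.8% AGAACA and 4.95% the AP-1 site. No match says only that these letters are not in these windows.

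SEMA4B and SEMA4C of class 4 were lower after dexamethasone. SEMA4B, a membrane semaphorin of epithelia and synapses at chr15:90160604-90229679 on the plus strand, stood at 16.4, 17.4, 15.4 and 16.6 FPKM untreated and 11.5, 11.2, 12.6 and 12.1 FPKM treated. In these deposited values the groups did not overlap and replicate 5 was inside its group each time. After scaling, replicate 5 was 1.31 times the mean of the other untreated libraries and 1.16 times that of the other treated ones. The log2 difference was -0.44 with an SE of 0.136 and a 95% interval of -0.75 to -0.14. SEMA4C, a membrane ligand of PLXNB2 at chr2:96859716-96870757 on the minus strand, stood at 7.69, 8.13, 7.72 and 8.54 FPKM untreated and 5.18, 6.51, 4.89 and 6.43 FPKM treated. Its groups did not overlap either, and the log2 difference was -0.43 with an SE of 0.164 and a 95% interval of -0.80 to -0.06. Both genes are rich in GC, at 61.1% and 60.4%, and both differences shrank to -0.20 with the GC trend removed. The part of GC content in these differences was not tested.

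Outside the 10, SEMA4D and SEMA4G fell and SEMA4F did not pass. SEMA4D, the ligand of PLXNB1, fell from 5.71 ± 0.974 to 3.83 ± 0.609 FPKM (SD, n = 4; log2 difference -0.48, SE 0.126, limma adjusted p = 0.0199). SEMA4G fell from 4.34 ± 0.279 to 3.03 ± 0.223 FPKM (SD, n = 4; log2 difference -0.41, SE 0.122, limma adjusted p = 0.0317); it lies opposite MRPL43, with which it could share reads. With the GC trend removed the differences were -0.34 for SEMA4D and -0.20 for SEMA4G, and neither passed. With replicate number added as a term to that fit, SEMA4D passed (limma adjusted p = 0.0132) and SEMA4G did not. SEMA4D also missed the threshold without untreated replicate 1 or 3 or dexamethasone replicate 4, and SEMA4G without untreated replicate 1 or dexamethasone replicate 1, 3 or 4 (highest adjusted p 0.0716 and 0.185 over all settings). SEMA4F was at 5.01, 5.26, 5.22 and 5.99 FPKM untreated and 3.94, 5.74, 4.21 and 9.30 FPKM treated, with the library of dexamethasone replicate 5 far above the rest (log2 difference 0.03, limma adjusted p = 0.946; -0.23 without that library). Class 4 summed to 40.0 ± 1.54 FPKM untreated and 30.3 ± 2.53 FPKM treated. SEMA7A, the ligand of PLXNC1, was not tested, and its values of 0.307 to 0.506 FPKM untreated and 0.0946 to 0.194 FPKM treated did not overlap. SEMA5A was listed at 0 in all 8 libraries.

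**Figure D2:**
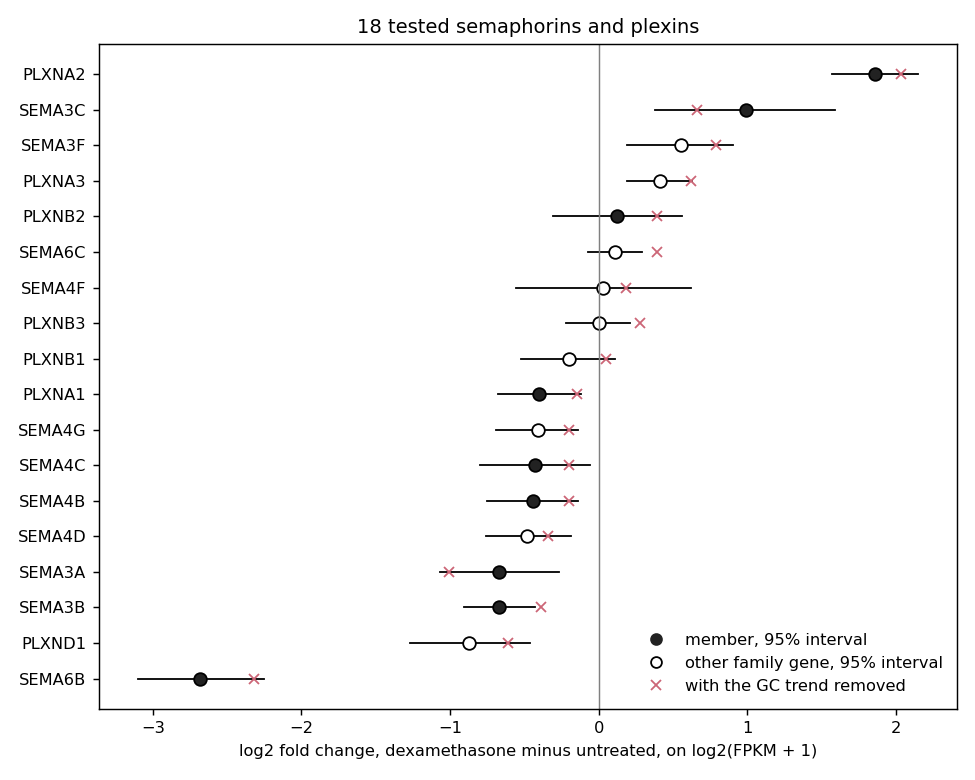
Log2 fold change on log2(FPKM + 1), dexamethasone minus untreated, for the 18 semaphorins and plexins that were tested, with 95% intervals (n = 4 against 4), filled points for the genes of the set of 10, open points for the others and crosses for the value with the GC trend removed. SEMA6B at -2.68 and PLXNA2 at 1.86 stand at the ends, and the crosses of most genes below 0 lie closer to 0 than their points.

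Of the class A plexins, PLXNA2 was higher and PLXNA1 lower after dexamethasone. PLXNA2, a receptor for class 6 semaphorins and, with neuropilins, for class 3, lies at chr1:208022242-208244320 on the minus strand. It stood at 1.47, 0.975, 1.08 and 0.983 FPKM untreated and 7.49, 7.25, 7.28 and 5.13 FPKM treated. All treated libraries were far above the untreated ones, and replicate 5 was the lowest treated library. The means were 1.13 ± 0.232 and 6.79 ± 1.11 FPKM (SD, n = 4), a scaled ratio of 5.96 and a log2 difference of 1.86 with an SE of 0.13 and a 95% interval of 1.57 to 2.15. It was 2.03 with the GC trend removed.

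PLXNA1, a class A plexin that forms the SEMA3A receptor with NRP1, lies at chr3:126988594-127037392 on the plus strand. It stood at 16.6, 17.4, 15.8 and 14.5 FPKM untreated and 11.2, 12.4, 11.4 and 12.6 FPKM treated. The groups did not overlap, but the gap was narrow beside that of PLXNA2. The log2 difference was -0.40 with an SE of 0.124 and a 95% interval of -0.68 to -0.12, and -0.15 with the GC trend removed. PLXNA1 to PLXNA2 was 11.3, 17.9, 14.6 and 14.7 in untreated replicates 1, 3, 4 and 5 and 1.5, 1.71, 1.57 and 2.46 in treated ones. PLXNA1 was the more abundant of the pair in all 8 libraries.

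PLXNA3, a class A plexin on chromosome X that partners NRP2, was outside the 10 and rose from 1.33 ± 0.112 to 2.11 ± 0.067 FPKM (SD, n = 4; log2 difference 0.41, SE 0.0979, limma adjusted p = 0.0117). PLXNA3 lies opposite LAGE3. PLXNA4 was too low to test, at 0.284 to 0.701 FPKM untreated and 0.0375 to 0.0631 FPKM treated, without overlap. The sum of the class A plexins was 19.0 ± 1.34 FPKM untreated and 20.9 ± 0.817 FPKM treated, with ranges of 17.1 to 20.1 and 19.9 to 21.9 FPKM that touch. The class total thus moved little while PLXNA2 became a larger part of it. The lower level of PLXNA1 is less sure, as its difference of -0.40 was -0.15 with the GC trend removed.

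PLXNB2, the receptor of SEMA4C and the leading plexin of these cells, lies at chr22:50274979-50307627 on the minus strand. It stood at 74.4, 87.6, 71.9 and 81.8 FPKM untreated and 71.1, 99.3, 78.3 and 99.8 FPKM treated. The groups overlapped, with replicates 1 and 4 low and replicates 3 and 5 high in both. The log2 difference was 0.12 with an SE of 0.192 and a 95% interval of -0.31 to 0.56, which leaves room for a change of either sign. With the GC trend removed the difference was 0.39. PLXNB1, the SEMA4D receptor, was at 6.46 ± 0.539 and 5.51 ± 0.697 FPKM (SD, n = 4; log2 difference -0.20, limma adjusted p = 0.299). PLXNB3 was at 0.573 ± 0.134 and 0.570 ± 0.146 FPKM (SD, n = 4; limma adjusted p = 0.982). PLXND1, the SEMA3E receptor, which also serves SEMA3C, fell from 16.9 ± 2.23 to 8.79 ± 0.62 FPKM (SD, n = 4; log2 difference -0.87, SE 0.181, limma adjusted p = 0.00653). PLXNC1 was at 0.126 FPKM or less in every library and was not tested.

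Of the 10 genes, 9 were tested and 7 passed an adjusted p of 0.05, 2 higher and 5 lower, and on the scaled log2 values 8 showed no overlap between groups. Over all genes these shares were 26.8% and 31.4%. Since the 10 were selected on this same change, nothing is read from their counts, and their median log2 difference of -0.43 stands beside 0.01 for all tested genes. Of the 19 family genes outside the 10, 9 were tested and 5 passed, with SEMA3F and PLXNA3 higher and SEMA4D, SEMA4G and PLXND1 lower. Over the whole family, 18 genes were tested and 12 passed, 4 higher and 8 lower, and with the GC trend removed 10 passed, 6 higher and 4 lower. Over all genes GC removal gave 4460 calls, 2236 higher and 2224 lower. The 9 members are part of these family counts, so the selection bears on them too.

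The family totals hardly moved while their composition did. All 20 semaphorins summed to 72.9 ± 6.92 FPKM untreated and 69.2 ± 3.88 FPKM treated, and all 9 plexins to 122 ± 8.2 and 123 ± 15.7 FPKM (SD, n = 4). SEMA3C made up 20.2%, 26.0%, 28.0% and 9.8% of semaphorin FPKM in untreated replicates 1, 3, 4 and 5 and 47.6%, 40.7%, 48.7% and 33.9% in treated ones. Class 3 held a mean share of 32.8% untreated and 54.1% treated, with ranges of 21.2% to 39.8% and 46.2% to 59.4%. All shares here are from deposited FPKM, with the GC trend left in. SEMA3C is poor in GC at 37.1%, while SEMA4B, SEMA4C and SEMA6B are at 61.1%, 60.4% and 69.7%. With the trend removed their log2 differences were all smaller in size, at 0.66, -0.20, -0.20 and -2.32. The part of GC content in the shares was not tested. SEMA6B made up 10.6% of semaphorin FPKM untreated and 0.485% treated. Among plexins the mean share of PLXNA2 went from 0.934% to 5.65%, that of PLXNA1 from 13.2% to 9.77% and that of PLXND1 from 13.8% to 7.20%. PLXNB2 held 63.2% to 66.6% of plexin FPKM untreated and 67.7% to 73.6% treated.

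**Figure D3:**
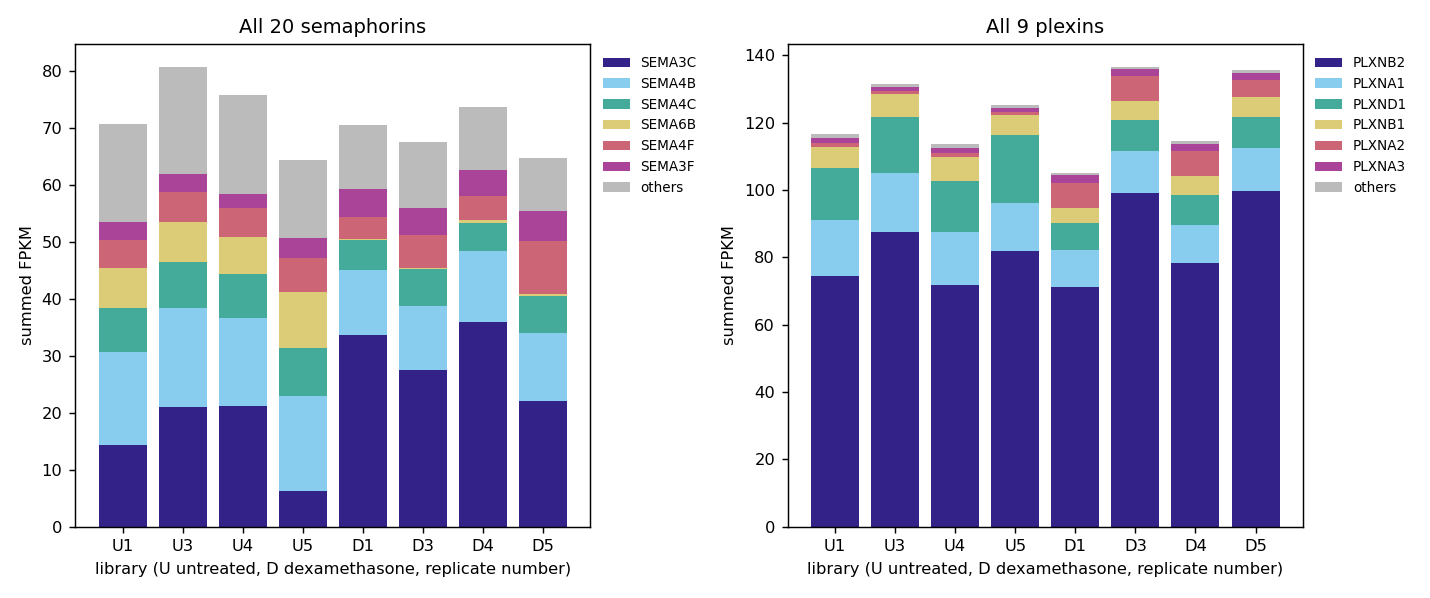
Summed FPKM of the 20 semaphorins (left) and the 9 plexins (right) in each library, U for untreated and D for dexamethasone followed by the replicate number, split by gene from the bottom in the order of the key. The SEMA3C segment is larger in all 4 treated libraries than in any untreated one and the SEMA6B segment nearly vanishes, while PLXNB2 fills most of every plexin bar.

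In untreated cells the order of levels was PLXNB2 at 78.9 FPKM, then SEMA4B at 16.4, PLXNA1 at 16.1 and SEMA3C at 15.7 FPKM, SEMA4C at 8.02 and SEMA6B at 7.59 FPKM, SEMA3B at 3.22, SEMA3A at 2 and PLXNA2 at 1.13 FPKM, with SEMA6A last. Neighbours from SEMA4B through SEMA6B overlapped each in turn, as did SEMA3A and PLXNA2. After dexamethasone SEMA3C stood alone in the next place after PLXNB2, at 29.7 FPKM, followed by PLXNA1 and SEMA4B at 11.9 FPKM each, which overlapped. PLXNA2 at 6.79 FPKM moved up beside SEMA4C at 5.75 FPKM, with overlap, and SEMA6B at 0.335 FPKM dropped below SEMA3B and SEMA3A. Among all tested genes, SEMA6B lay above 48.7% untreated and above 0.9% treated, and PLXNA2 above 8.8% and 44.1%. SEMA6B passed the minimum of 0.5 FPKM in 4 libraries through its untreated libraries only. Its treated rank near the bottom of the tested genes therefore follows from that filter.

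**Figure D4:**
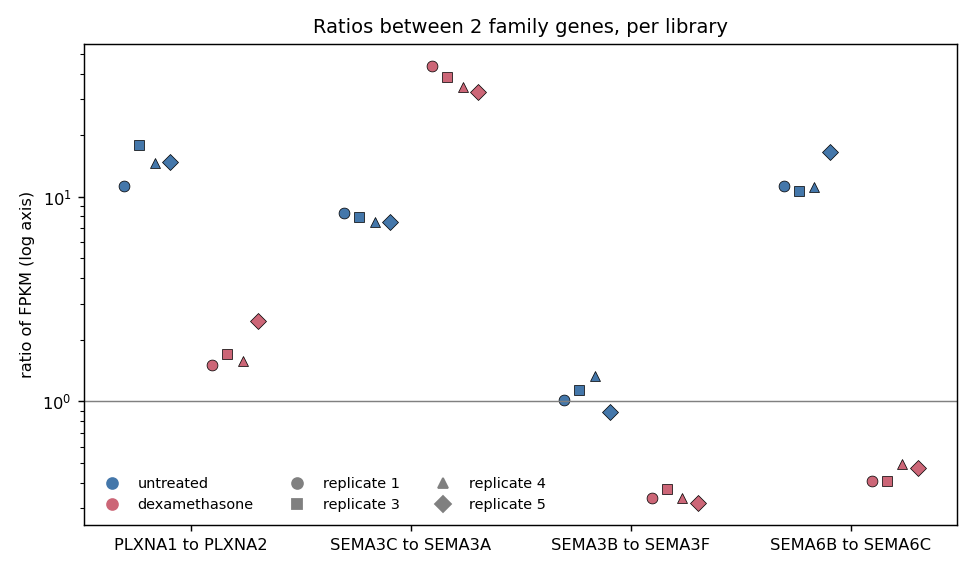
Ratio of deposited FPKM between 2 genes within each library (log axis), untreated in blue and dexamethasone in red, with the marker shape giving the replicate number and the grey line marking equal levels. None of the 4 ratios overlaps between groups, and the SEMA3C to SEMA3A ratio spans only 7.54 to 8.31 in untreated libraries.

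Replicate 5 departed from its group in opposite directions for different genes. In untreated cells its deposited FPKM was 0.336 of the mean of the other replicates for SEMA3C, 0.351 for SEMA3A and 0.379 for SEMA3E, but 1.44 for SEMA6B and 1.27 for PLXND1. In treated cells the same ratio was 0.679 for SEMA3C and 0.699 for PLXNA2. Without both libraries numbered 5 the sign of every one of the 9 tested members stayed as it was.

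The neuropilins, which carry class 3 signals together with plexins, did not pass the test. NRP1, the SEMA3A receptor, stood at 41.5, 52.5, 41.4 and 23.0 FPKM untreated and 43.0, 44.4, 45.0 and 39.8 FPKM treated (log2 difference 0.17, 95% interval -0.20 to 0.54, limma adjusted p = 0.466). NRP2, which binds SEMA3F and SEMA3C, stood at 64.4, 65.3, 56.2 and 37.5 FPKM untreated and 79.9, 74.1, 70.0 and 46.2 FPKM treated (log2 difference 0.27, 95% interval -0.11 to 0.65, limma adjusted p = 0.264), and without both libraries numbered 5 NRP2 passed (log2 difference 0.32, limma adjusted p = 0.0257). Both neuropilins were above every class 3 semaphorin in all 8 libraries, and replicate 5 was their lowest library in each group. Of 9 tested co-receptors 4 passed, against 26.8% of all genes. NRCAM, an adhesion molecule that joins NRP2 in semaphorin receptors, rose from 33.8 ± 12.4 to 70.7 ± 10.5 FPKM (SD, n = 4; log2 difference 1.11, limma adjusted p = 0.00409). L1CAM, the partner of NRP1 in SEMA3A signalling, fell from 3.66 ± 0.535 to 1.69 ± 0.173 FPKM (SD, n = 4; log2 difference -0.79, limma adjusted p = 0.00277). ITGA1, an integrin chain that takes part in the SEMA7A receptor, rose from 0.251 to 0.767 FPKM (log2 difference 0.51, limma adjusted p = 0.002), and MST1R, a kinase that associates with class B plexins, fell from 5.97 to 4.05 FPKM (log2 difference -0.47, limma adjusted p = 0.0135). Neither ITGA1 nor MST1R passed with the GC trend removed, at 0.22 and -0.24, and MST1R also missed the threshold without dexamethasone replicate 4. With replicate number added as a term to the GC fit, MST1R passed and ITGA1 did not. ITGA1 reached the minimum of 0.5 FPKM in treated libraries only. It was tested only through the group where it is high, so its call is a description.

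Among cytoplasmic proteins that act below plexins, 38 of 39 genes were tested and 14 passed, or 36.8% against 26.8% of all genes, 6 higher and 8 lower, with a median log2 difference of 0.10 against 0.01. With the GC trend removed 21 passed, 14 higher and 7 lower, so the balance of directions turned. RND1, which binds the plexin cytoplasmic domain, stood at 9.79, 7.15, 7.37 and 9.31 FPKM untreated and 0.778, 0.845, 0.490 and 0.839 FPKM treated. It fell in every treated library to below 1 FPKM (log2 difference -2.43, SE 0.178, limma adjusted p = 1.36e-05). SH3BP1, a GTPase-activating protein that acts on Rac below PLXND1, fell from 2.05 ± 0.19 to 0.358 ± 0.1 FPKM (SD, n = 4; log2 difference -1.17, limma adjusted p = 5.91e-05). SH3BP1 reached the minimum of 0.5 FPKM in untreated libraries only, the group where it is high, so its call is a description. DPYSL3, a collapsin response mediator of the cytoskeleton, fell from 23.1 ± 0.947 to 6.45 ± 1.15 FPKM (SD, n = 4; log2 difference -1.71, limma adjusted p = 7.75e-05). FARP1, a guanine nucleotide exchange factor, rose from 5.42 ± 0.309 to 12.4 ± 1.07 FPKM (SD, n = 4; log2 difference 1.06, limma adjusted p = 0.000136). ENAH, which lengthens actin filaments, rose from 12.8 ± 4.76 to 34.8 ± 7.43 FPKM (SD, n = 4; log2 difference 1.43, limma adjusted p = 0.00132). MICAL2, an oxidoreductase acting on actin, rose from 32.8 to 47.0 FPKM (log2 difference 0.50, limma adjusted p = 0.0141), and without dexamethasone replicate 3 its adjusted p was 0.0554. The list thus held genes that moved in both directions.

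Semaphorins are cut by furin-like and surface proteases, which changes their activity or releases them. Of 6 such genes 5 were tested and 3 passed, all higher, where 12.6% of all genes were called higher; 1 passed without untreated replicate 1 or without dexamethasone replicate 4. PCSK5, a furin-like convertase, rose from 0.740 to 1.57 FPKM (log2 difference 0.58, limma adjusted p = 0.00811). ADAM10, a surface sheddase, rose from 8.16 to 15.4 FPKM (log2 difference 0.90, limma adjusted p = 0.0226). PCSK6, another convertase, rose from 8.46 to 12.3 FPKM (log2 difference 0.49, limma adjusted p = 0.0247). Only PCSK5 of these passed whichever library was left out: ADAM10 missed the threshold without untreated replicate 1 or dexamethasone replicate 1 or 4 and without scaling, and PCSK6 without any of 6 libraries, untreated replicates 1, 3 and 4 and dexamethasone replicates 3, 4 and 5, with adjusted p of up to 0.0694 and 0.0760.

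**Figure D5:**
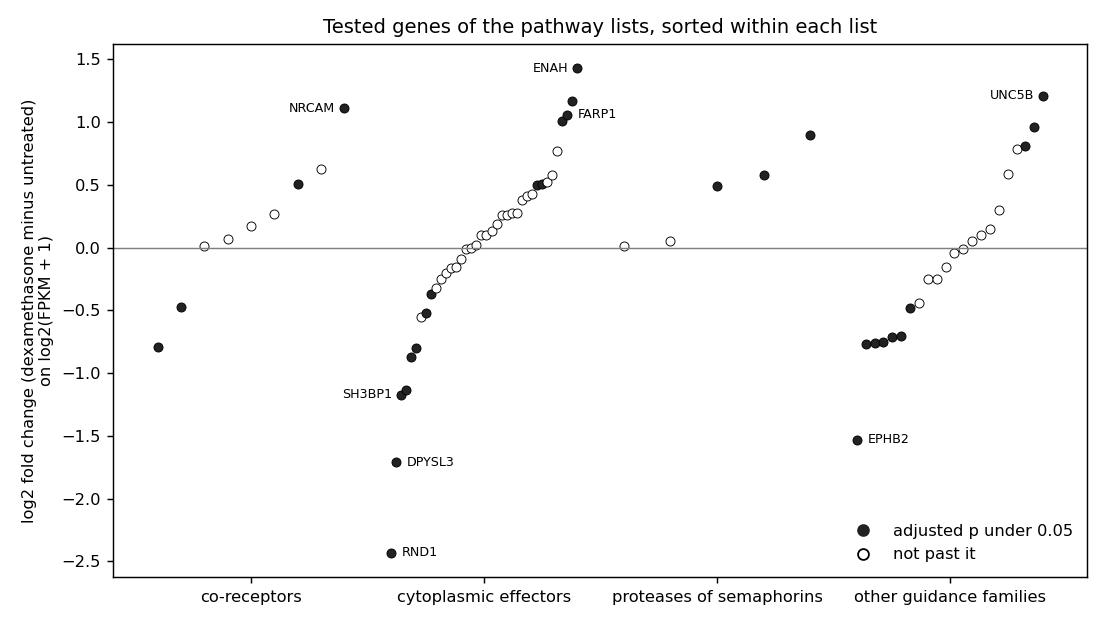
Log2 fold change on log2(FPKM + 1), dexamethasone minus untreated, of every tested gene in the 4 pathway lists (n = 4 against 4), sorted from left to right within each list, filled where the limma adjusted p was under 0.05 and named for genes described in the text with a difference of at least 1. RND1 at -2.43 is the lowest and ENAH at 1.43 the highest, and 3 of the 4 lists hold filled points on both sides of 0.

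Guidance genes of the ephrin, Eph, netrin and Slit families were set beside the semaphorins. Of 38 such genes 22 were tested and 10 passed, 3 higher and 7 lower, or 45.5% of those tested, against 66.7% of the 18 tested semaphorins and plexins and 26.8% of all genes. These shares were not tested against each other, and the semaphorin share includes genes selected on the change. ROBO2 was not analysed here. UNC5B, a netrin receptor, rose from 0.208 ± 0.0443 to 1.82 ± 0.219 FPKM (SD, n = 4; log2 difference 1.21, limma adjusted p = 1.13e-05). EFNB2, a membrane ephrin, rose from 0.746 to 2.08 FPKM (log2 difference 0.81, limma adjusted p = 0.000178), and EPHB6, an Eph receptor without kinase activity, from 0.254 to 1.47 FPKM (log2 difference 0.96, limma adjusted p = 0.00131). EPHB2, an Eph receptor kinase, fell from 18 ± 0.82 to 5.70 ± 1.49 FPKM (SD, n = 4; log2 difference -1.53, limma adjusted p = 0.000515). EPHB3 fell from 0.762 to 0.0864 FPKM (log2 difference -0.70, limma adjusted p = 0.000276), and the ephrin gene EFNA2 from 1.16 to 0.325 FPKM (log2 difference -0.71, limma adjusted p = 0.00213). UNC5B and EPHB6 reached the minimum of 0.5 FPKM in treated libraries only, and EPHB3 and EFNA2 in untreated ones only. These genes were tested only through the group where they are high. Their calls, and their part in the counts above, are therefore a description.

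The genes whose pattern over the 8 libraries lay closest to SEMA6B were TESC, KCNF1 and AMBP, by the root mean square difference between centred log2(FPKM + 1) profiles. TESC, a calcium-binding protein, differed from SEMA6B by 0.14 and had means of 50.0 and 8.28 FPKM. KCNF1, a potassium channel subunit, differed by 0.17 and had means of 10.3 and 1.12 FPKM, and AMBP, a precursor of secreted plasma proteins, differed by 0.19 and had means of 13.4 and 1.68 FPKM. The likeness was computed over all 8 libraries, untreated replicate 5 included, where TESC was at 60.5, KCNF1 at 12.2 and AMBP at 16.3 FPKM. It includes the group difference on which SEMA6B was selected, and it holds on this scale only. The added 1 FPKM weighs most on SEMA6B, whose treated level lay below it. After scaling the untreated mean was 23.3 times the treated one for SEMA6B. For TESC, KCNF1 and AMBP it was 6.16, 9.26 and 8.11 times.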

How the data were processed

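RNA was measured in 8 A549 libraries, 4 untreated and 4 treated. Per the labels' protocols, ribosomal RNA was depleted and libraries were primed with random hexamers. The submitters' processing notes name cutadapt 3.4, STAR 2.7.9a, featureCounts and GRCh38; the annotation and whether strand was used are not given in the sources used here. The authors deposited values described as counts, but they are not whole numbers and were read as FPKM, an inference from the values: the deposited FPKM summed to 338989 to 373855 per library. In each library 39.6% to 44.2% of low values lay within 0.1 of a whole fragment number, against 20% by chance. The depth was picked to make this share highest, so the 20% is not a fair bar for it. No count test was run, and depth is an estimate. The coordinates are those deposited with the values, and GENCODE v44 gave strand, overlaps and GC content.

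Scaling between libraries used trimmed means of M values (trims 0.3 and 0.05). Genes reaching 0.5 FPKM in 4 or more libraries (3 with a library left out) were tested as log2(FPKM + 1) with limma 3.58.1 in R 4.3.3 (trend and robust, group as the only term, two-sided), with Benjamini-Hochberg adjustment over 12161 genes, after the code was tested on simulated data. Fold changes on this scale understate those of low genes. The GC trend was a spline of 5 degrees of freedom fitted to each library. The 10 genes and the lists were chosen with earlier results of these data known. Named were all 10, every tested family gene, the treatment check genes, up to 3 called genes per direction of each other list by smallest p, and the 3 profiles nearest SEMA6B; others named were chosen after their values were seen. No pair of libraries held identical values.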

Additional observations from a re-analysis of the deposited data

Results flagged for a closer look

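Of 82 groups of 4 values checked, 5 had a library standing apart from the other 3, where about 4 would by chance (about 1 in 20). SEMA6B was at 9.82 FPKM in untreated replicate 5 and 6.48 to 7.04 FPKM in the other untreated libraries. PLXNA2 was at 5.13 FPKM in dexamethasone replicate 5 and 7.25 to 7.49 FPKM in the other treated libraries. SEMA4G was at 4.76 FPKM in untreated replicate 1 and 4.17 to 4.24 FPKM in the others of its group. SEMA6A was at 0.017 FPKM in untreated replicate 1 against 0.00542 to 0.00579 FPKM, and at 0.0687 FPKM in dexamethasone replicate 3 against 0 to 0.00712 FPKM, levels that are near the floor in every library.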

How the results depend on the processing

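PLXNA3 and PLXND1 kept their direction and their side of the threshold under all 18 alternatives, as did the members PLXNA2, SEMA6B and SEMA3B. The members were selected on this same change, so their calls below describe the settings only and are no evidence for the change. Of 554 values of the 31 other named genes under the alternatives, 507 kept direction and call, 32 lost the call, 2 gained it and 13 changed sign. Of 162 values of the 9 tested members, all kept direction, 20 lost the call and 6 gained it. SEMA3A did not pass without dexamethasone replicate 1 or 3, and SEMA3C not without scaling or without untreated replicate 1 or dexamethasone replicate 1, 3 or 4. SEMA4C passed with no scaling, with the replicate block, without both replicate 5 libraries or the dexamethasone one alone, and PLXNB2 with the GC trend removed, with and without the block. SEMA4B and PLXNA1 did not pass in those GC fits, or without untreated replicate 1 or 3 or dexamethasone replicate 1, 3 or 4.

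The values do not settle whether replicate numbers pair the libraries. Correlations of same-numbered deviations were 0.294, 0.067, 0.315 and 0.713 for numbers 1, 3, 4 and 5. Dexamethasone 1 correlated best with untreated 3 (0.435), and untreated 3 and 4 with dexamethasone 1. Every other library correlated best with the library of its own number. With a replicate block 5738 genes were called in place of 3258, 23 cytoplasmic effector genes (13 higher, 10 lower) in place of 14, and 6 co-receptors (4 higher) in place of 4, NRP2 among them (adjusted p = 0.0372); the block and GC removal together gave 5362 genes and 5 of the semaphorin proteases in place of 3. Without both libraries numbered 5, 5534 genes were called. GC removal gave 2 co-receptors in place of 4. Leaving out 1 library at a time gave 2285 to 3876 genes, 6 to 12 semaphorins and plexins in place of 12 (6 without untreated replicate 1 or dexamethasone replicate 1 or 4, and 7 without dexamethasone replicate 3), 3 to 4 co-receptors, 9 to 14 effectors (9 without dexamethasone replicate 4), 1 to 3 proteases (1 without untreated replicate 1 or dexamethasone replicate 4) and 9 to 11 other guidance genes.

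Sign changes were limited to 3 genes that were not called. SEMA4F ranged from -0.23 to 0.18 with 1 library left out (-0.02, -0.01 and -0.01 without untreated replicates 1, 3 and 4) and was -0.10 without both libraries numbered 5. PLXNB1 was 0.05 with the GC trend removed, with and without the replicate block. PLXNB3 was 0.28 in both of those fits, 0.00 with median-of-ratios scaling and -0.06 to 0.05 with 1 library left out. The cause was not tested for any of these. Values below 0.5 FPKM in most libraries, as for SEMA6A, are too close to the floor for a comparison.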
